A study of Mus musculus with 282 samples.

Results

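Inflamed basal prostate stem cells with at least 1 read of the chemokine gene Ccl20 were compared with inflamed cells that had 0 reads of it. The 2 classes were chosen by the measured Ccl20 reads themselves, so Ccl20 levels are described here and not tested, and Ccl20 was left out of every comparison of the other genes. Among the kept inflamed cells, 94 were Ccl20-positive (45 of 80 in batch 2 and 49 of 76 in batch 3) and 62 were Ccl20-negative (35 and 27). A kept cell had at least 1000 detected genes and 50000 counts. This held for 268 of all 282 cells, naive and inflamed, and left out 7 inflamed cells.

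The cells came from the prostates of male POET3 mice, which express ovalbumin as a transgene in the prostate and serve as a model of prostatitis. Every cell, naive or inflamed, came from this transgenic line, and the labels give neither the age of the mice nor how inflammation was induced. To enrich basal stem cells, live cells were sorted on staining for Sca-1, CD49f, CD45 and CD31, with gates that the labels do not give. They were captured on a Fluidigm C1 instrument and sequenced as single-end reads. Each cell is labelled naive or inflamed and as batch 2 or batch 3. No animal is named, so cells of 1 batch may share a mouse.

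CCL20 is a chemokine of inflamed epithelia that binds the receptor CCR6 on type 17 helper T cells, dendritic cells and B cells. Epithelial cells transcribe it after signals such as interleukin 1, tumour necrosis factor, interleukin 17 or microbial products, which act through the transcription factor NF-kB. NF-kB also induces the neutrophil chemokines Cxcl1 and Cxcl2, the inducible cyclooxygenase Ptgs2, and its own inhibitors such as Tnfaip3 and Nfkbia.

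The promoters of the 4 genes of this programme on which the values below turn are shown as the 120 bases before the RefSeq transcription start (GRCm38.p6), since NF-kB binds DNA of the form GGGANNNNCC. Capitals mark matches to GGGANNNNCC on either strand.
Ccl20 (chr1:83116646-83116765, plus strand): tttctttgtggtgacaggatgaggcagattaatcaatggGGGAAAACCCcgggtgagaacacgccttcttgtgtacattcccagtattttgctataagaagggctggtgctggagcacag
Ptgs2 (chr1:150099911-150100030, plus strand): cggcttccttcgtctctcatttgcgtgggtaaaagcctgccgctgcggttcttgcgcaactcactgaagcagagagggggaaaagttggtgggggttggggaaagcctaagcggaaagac
Cxcl1 (chr5:90891125-90891244, plus strand): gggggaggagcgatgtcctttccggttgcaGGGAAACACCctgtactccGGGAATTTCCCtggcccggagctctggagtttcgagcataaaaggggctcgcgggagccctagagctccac
Cxcl2 (chr5:90903779-90903898, plus strand): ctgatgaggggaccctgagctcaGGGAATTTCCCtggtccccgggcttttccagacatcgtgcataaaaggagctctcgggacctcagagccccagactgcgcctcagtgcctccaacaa
The Ccl20 window holds 1 match, which starts 81 bases before the start. The Cxcl1 window holds 3 matches, at 90, 71 and 70 bases, of which the last 2 overlap on opposite strands, and the Cxcl2 window holds 2, at 97 and 96 bases, that overlap in the same way. The Ptgs2 window holds 0. Of 32851 windows of this length before RefSeq starts, 3230 (9.83%) hold a match, and a match of letters is not a measured binding site.

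Ccl20 (ENSMUSG00000026166; GRCm38 chromosome 1, 83116766 to 83119167, plus strand) had reads in 45 of 80 inflamed cells of batch 2 (56.2%, exact Clopper-Pearson 95% interval 44.7 to 67.3) and in 49 of 76 of batch 3 (64.5%, 52.7 to 75.1). No molecular identifiers were added to the cDNA, so the values are reads and not molecules. Every interval and floor in the text is over numbers of cells, for counting error alone and not for spread between animals or batches. A floor, the share that a count of 0 allows, is approximate. Among kept naive cells, 0 of 53 in batch 2 had a read, which allows a share of up to 5.66%, and 9 of 59 in batch 3 did (15.3%, 7.22 to 26.99), with at most 6 reads in a cell. The positive cells fell into well-separated levels. In batch 2, 28 cells had 1 to 6 reads and 17 had 98 to 14290. In batch 3, 30 cells had 1 to 17 reads (at most 20.1 CPM, counts scaled to the library total) and 19 had up to 70726 (at least 140.2 CPM).

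Almost all Ccl20 reads came from the few cells at the high level. Cells with at least 50 reads, a limit placed in the gap after the reads were seen, held all but 0.182% of 36738 reads in batch 2 and all but 0.0818% of 133304 in batch 3. A single cell gave 38.9% and 53.1% of all reads in batches 2 and 3. The Ccl20 level in these 36 cells ran from 120 through a median of 844.9 to 11930 CPM in batch 2, and from 140.2 through 2044 to 33270 CPM in batch 3. The 58 other positive cells had medians of 2.09 and 2.85 CPM, and the 9 positive naive cells of batch 3 had 1.501 CPM. Both groups hold only cells with 1 or more reads, so similar low values follow in part from that rule. Just inside the rule, 9 cells of batch 2 and 12 of batch 3 had 1 read. Values of 1 to 4 reads make up 32.2% of all values above 0 in the kept inflamed cells, so counts this low are common in these data.

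**Figure D1:**
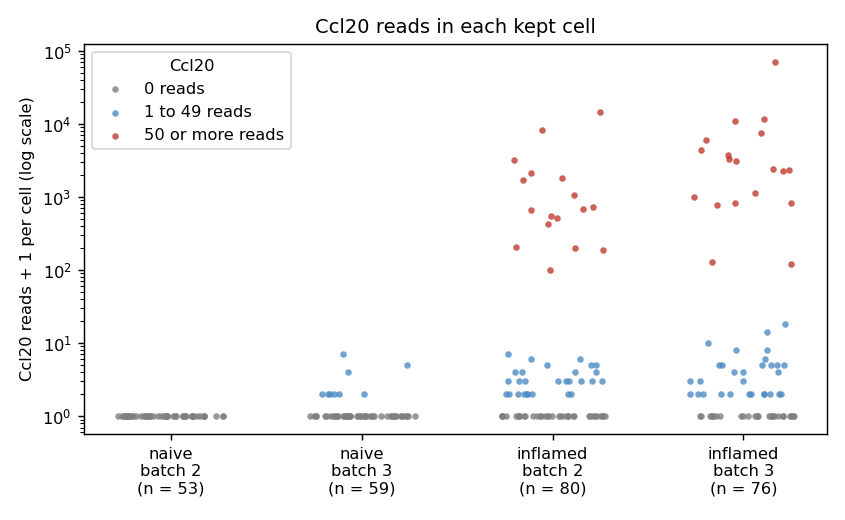
Ccl20 reads plus 1 in each kept cell (log axis) for naive and inflamed cells of batches 2 and 3, with 1 point per cell coloured by 0, 1 to 49, or 50 and more reads. Inflamed cells lie at 0, at up to 17 reads, or at 98 reads and above, and naive cells do not exceed 6 reads.

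Positive cells had the higher median depth. Their median total was 1113746 counts against 959691 in negative cells of batch 2, and 1026015 against 924811 in batch 3. They did not have more detected genes, with medians of 4678 against 4769 and of 4064 against 4122. After each cell was thinned to 500000 counts, which 10 and 4 shallower inflamed cells could not supply, 34 of 70 (48.6%) and 40 of 72 (55.6%) cells had a Ccl20 read. Of the cells with 1 to 49 reads, 18 of 26 and 21 of 26 kept a read after thinning. Membership of the positive class thus shifted with depth for cells near the threshold, whereas 50 or more reads is far from it. Mitochondrial genes took a median of 3.78% of counts in positive and 3.45% in negative cells of batch 2, and 2.83% and 2.63% in batch 3. Of 11 cells above 20%, 5 were negative, 5 had 1 to 49 reads and 1 had more.

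Both classes carried the basal markers. All 10 basal markers were measured, and their summed level was 14310 and 13960 CPM in positive cells of batches 2 and 3 against 13110 and 12620 CPM in negative cells. It was highest in cells with 50 or more Ccl20 reads, at 17110 and 15480 CPM. The luminal markers summed to 2827 and 2495 CPM in positive and 3311 and 2525 CPM in negative cells, and 9 of 14 were measured. Leukocyte markers were at or near 0: 10 of 12, Ptprc (CD45) among them, had 0 reads in every kept inflamed cell, and the sum was 0.0210 and 0 CPM in positive and 0 and 1.95 CPM in negative cells. Fibroblast and smooth muscle markers summed to 3567 and 4682 CPM in positive and 3325 and 4184 CPM in negative cells, with 4 of 12 measured. The part of these cell types in the differences below was not tested. Ccr6, the receptor of CCL20, had 0 reads in every kept cell.

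No gene was called between the classes, with Ccl20 itself left out of the table. Counts were summed over the cells of each class and batch, because cells are not replicates, and the 4 sums were compared with edgeR's quasi-likelihood test with the batch in the model (n = 2 sums per class, 1 residual degree of freedom). If the batches are not separate sets of animals, each class is in effect 1 sample, and the spread between batches may be technical. Of 13214 genes tested, 0 (0.0%) had an adjusted p under 0.05 by edgeR. At an unadjusted p under 0.05, 1.86% of the genes (246) were higher in positive cells and 1.39% lower, and the lowest unadjusted p was 0.000674. DESeq2, run beside it, called 409 genes (3.1%), of which 247 were higher.

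The direction of a gene's difference in batch 2 said little about batch 3. Both batches shared a direction for 49.4% of the 13214 genes, with 3602 higher in both (27.3%) and 2925 lower in both (22.1%). Across genes, which share the libraries and are not replicates, the within-batch log2 folds had a Pearson's r of 0.0078. Of all genes, 1365 were at least 2-fold higher in both batches (10.3%) and 870 at least 2-fold lower (6.58%). Of the 6849 genes with reads in at least 20% of cells, 3.53% and 2.56% met this rule. With every cell thinned to 500000 counts the shares over all genes were 9.8% and 6.34%, and with classes matched on detected genes 8.93% and 8.36%, and edgeR called 0 genes in both. Which direction had more genes depended on the threshold for a positive cell. With at least 5 Ccl20 reads 7.67% were higher and 10.9% lower, and with at least 50 reads 7.05% and 12%. The median log2 fold over all genes was 0.04 in batch 2 and 0.08 in batch 3. All single-gene values that follow are therefore descriptions of genes that missed edgeR's threshold, each with an adjusted p of 1.

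Cells with 50 or more Ccl20 reads were also set against the negative cells, with each cell given equal weight, as the difference of mean log2(CPM + 1). This contrast was added after the reads were seen, so its values are descriptions. A limma fit of these means, with batch and class as terms, gave a lowest adjusted p of 0.141. Of 11842 genes, 3139 (26.5%) had a higher and 2741 (23.1%) a lower mean in both batches. A difference of at least 1 in both batches was found for 0.937% of the genes upward and 0.431% downward (51 genes). Across genes the differences of the 2 batches had an r of -0.0081.

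**Figure D2:**
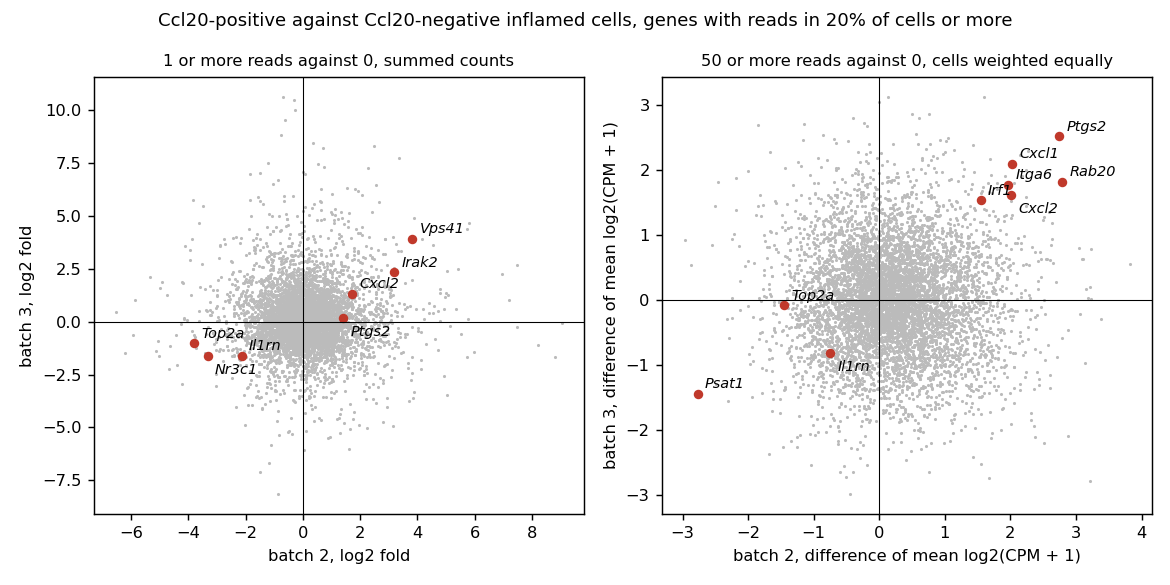
Each point is a gene, with its difference between the classes in batch 2 on the horizontal axis and in batch 3 on the vertical axis, for genes with reads in at least 20% of cells. The left panel shows log2 folds of the sums of cells with 1 or more Ccl20 reads over those with 0, and the right panel differences of mean log2(CPM + 1) between cells with 50 or more reads and those with 0. Both clouds lack a diagonal, Il1rn lies low in both batches at left and Ptgs2 high in both at right.

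Ptgs2 (GRCm38 chromosome 1, 150100031 to 150108227, plus strand), which makes prostaglandins, was read in 96.2% of all kept inflamed cells. It was read in every cell with 50 or more Ccl20 reads. Its lowest, median and highest CPM were 27.84, 2173 and 10660 in the 17 such cells of batch 2, and 54.96, 2183 and 12960 in the 19 of batch 3. Negative cells had 0, 428 and 5917 CPM in batch 2 and 0, 1444 and 6854 CPM in batch 3. The ranges overlapped widely, and the cells with abundant Ccl20 had the higher median and lacked the lowest values. Naive medians were 0.727 and 2.13 CPM. The mean log2(CPM + 1) of Ptgs2 was 2.75 higher in batch 2 and 2.52 higher in batch 3.

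The cells with 1 to 49 reads did not follow this for Ptgs2 in both batches. Their median was 1491 CPM in batch 2, above the negative cells, and 314 CPM in batch 3, below them. In the sums of all positive against all negative cells, Ptgs2 was 2.65-fold higher in batch 2 and 1.12-fold higher in batch 3 (log2 fold change 0.79 ± 0.37, SE, n = 2 sums per class; unadjusted p = 0.113, adjusted p = 1, edgeR).

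The neutrophil chemokines Cxcl1 and Cxcl2 also had their highest medians in cells with abundant Ccl20. Cxcl1 (chromosome 5, 90891241 to 90893115, plus strand) had a median of 358 CPM in cells with 50 or more Ccl20 reads, 5.72 CPM in those with 1 to 49 and 14.7 CPM in negative cells of batch 2. In batch 3 the medians were 65.7, 3.29 and 1.67 CPM. Each of these 6 groups had cells without a Cxcl1 read, and the highest cells reached 2312 and 1894 CPM in negative and 6129 and 3723 CPM in cells with abundant Ccl20. Naive medians were 0.937 and 2.51 CPM, the latter above the negative cells. The difference of means was 2.03 and 2.09. In the sums, Cxcl1 was 2.20-fold and 1.56-fold higher in positive cells (log2 fold change 0.89 ± 0.25, SE, n = 2 sums per class; unadjusted p = 0.0316, adjusted p = 1, edgeR).

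Cxcl2 (chromosome 5, 90903871 to 90905938, plus strand), its neighbour, had medians of 68.4, 27.96 and 17.7 CPM in cells with 50 or more, 1 to 49 and 0 Ccl20 reads of batch 2. In batch 3 they were 6.10, 3.65 and 1.31 CPM. The order was the same in both batches, while the ranges overlapped, from 0 to 991 CPM in negative cells of batch 2 and from 0 to 1985 CPM in cells with abundant Ccl20. Its sums stood at 266 and 148.7 CPM in positive against 81.2 and 59.4 CPM in negative cells, which is 3.27-fold and 2.50-fold (log2 fold change 1.52 ± 0.35, SE; unadjusted p = 0.018, adjusted p = 1, edgeR). One cell gave 44% of the positive reads of batch 2. Without cells above 20% mitochondrial reads, the difference of means for Cxcl2 in batch 2 went from 2.01 to 1.21.

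As a group, 18 of 20 epithelial chemokines other than Ccl20 were measured, of which 8 were higher in positive cells in both batches and 0 lower in both, against 27.3% and 22.1% of all genes. Their median log2 fold was 0.49 in batch 2 and 0.80 in batch 3, and 0.48 and 0.62 when sums of 0, which 5 members had, were set to 3 counts. With cells given equal weight, 11 of 18 were higher in both batches and the medians were 0.20 and 0.33. The sums of cells with 50 or more Ccl20 reads had 4 of 16 higher and 1 lower, with medians of -0.32 and 1.36, and those with 1 to 49 reads had the same counts, with medians of 0.62 and -0.01. The summed level of the list was 2519 against 1827 CPM in batch 2 and 3415 against 3495 CPM in batch 3, positive against negative cells. The interferon-induced chemokine Cxcl10 was not among the 8. It was at 380 and 2023 CPM in positive against 627 and 1782 CPM in negative sums, lower in batch 2 and higher in batch 3. With cells given equal weight, its mean log2(CPM + 1) was higher in positive cells by 0.28 and 0.61. In cells with 50 or more Ccl20 reads it was higher by 1.0 and 2.28 than in negative cells.

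The NF-kB regulators showed no common direction in the sums. Of 24 measured subunits and feedback inhibitors, 6 were higher in each batch and 5 lower, against 27.3% and 22.1% of all genes. The medians were 0.07 and -0.14. Tnfaip3 (chromosome 10, 19000910 to 19015657, minus strand), the deubiquitinase A20 that ends NF-kB signalling, was the highest of them. Its medians were 49.4 and 43.3 CPM in positive and 5.24 and 35 CPM in negative cells of batches 2 and 3, with cells at 0 in each. In the sums it stood at 441 and 449 CPM against 203 and 153.9 CPM (log2 fold change 1.33 ± 0.27, SE, n = 2 sums per class; unadjusted p = 0.0112, adjusted p = 1, edgeR; adjusted p = 0.0413, DESeq2). Nfkbia, the inhibitor IκBα, had reads in every kept inflamed cell. Its sums were 998 and 1961 CPM in positive and 1217 and 1481 CPM in negative cells, lower in 1 batch and higher in the other. Between cells with 50 or more Ccl20 reads and negative cells, 13 of 24 members had a higher mean in both batches and 1 a lower one, against 26.5% and 23.1% of all genes. Without the cells above 20% mitochondrial reads the 13 became 10. This rested on giving cells equal weight: in the sums of the same cells 7 members were higher in each batch and 6 lower, with medians of 0.14 and -0.07.

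Among 18 measured NF-kB target cytokines and effectors, 6 were higher in both batches and 3 lower, against 27.3% and 22.1% of all genes. The medians were 0.59 and 0.00. Lif, a cytokine of the interleukin 6 family, was at 193 and 179.1 CPM in positive against 112.2 and 76.5 CPM in negative sums (log2 folds 0.78 and 1.23). Icam1, the adhesion molecule for leukocytes, was at 616 and 510 CPM against 294 and 574 CPM, higher in batch 2 only. Its median in cells with 50 or more Ccl20 reads was 493 and 330 CPM against 26.5 and 27.9 CPM in negative cells, and the mean difference was 3.09 in batch 2 and 0.63 in batch 3.

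Il1rn, the secreted antagonist of the interleukin 1 receptor that the series' title names, was lower in the Ccl20-positive sums of both batches. It lies on chromosome 2, 24336853 to 24351494, plus strand. Reads were found in 16 of 45 positive cells (35.6%) and 17 of 35 negative cells (48.6%) of batch 2, and in 10 of 49 (20.4%) and 11 of 27 (40.7%) of batch 3. Thinned to 500000 counts, the shares were 35.7% and 39.3% in batch 2 and 22.2% and 37.0% in batch 3, closer together than without thinning. Of naive cells, 0 of 53 in batch 2 (which allows up to 5.66%) and 5 of 59 in batch 3 had an Il1rn read. The median cell of every class was at 0, and the highest reached 651 and 3507 CPM in positive and 1559 and 5128 CPM in negative cells. The sums held 40.8 and 110.9 CPM in positive against 180.7 and 337 CPM in negative cells, 4.43-fold and 3.04-fold lower (log2 fold change -1.87 ± 0.35, SE, n = 2 sums per class; unadjusted p = 0.00882, adjusted p = 1, edgeR; adjusted p = 0.00472, DESeq2). One cell gave 54.4% of the negative and another 62.6% of the positive reads of batch 3. Seen from the other side, 48.5% and 47.6% of the cells with Il1rn reads were Ccl20-positive, so both genes were read in 16 cells of batch 2 and 10 of batch 3.

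The interleukin 1 list did not share a direction. Of 12 measured members, Il1rn among them, 2 were higher in both batches (Il1a and Irak2), against 27.3% of all genes. Another 2, Il1rn and Irak1 (a receptor-associated kinase), were lower in both, against 22.1% of all genes. The medians were -0.24 and 0.37. Il1a, an agonist of the same receptor, was higher in the positive sums (log2 folds 0.98 and 1.09), at 94.1 against 44.3 CPM in batch 3. It had reads in 30.1% of cells, and single cells gave 37.2% to 70.5% of the reads of a sum. Irak2, a kinase that carries interleukin 1 and Toll-like receptor signals to NF-kB, was 3.20 and 2.34 higher on the log2 scale in the positive sums. This lay in the cells with 1 to 49 Ccl20 reads in batch 2, where Irak2 had 1149 reads against 70 in the cells with 50 or more and 89 in negative cells.

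Of 9 measured Toll-like receptors and adaptors, 4 were higher in both batches and 1 lower, against 27.3% and 22.1% of all genes. The medians were 1.09 and -0.44. Myd88, the adaptor of most Toll-like receptors, was at 42.5 and 90.04 CPM in positive against 19.9 and 7.95 CPM in negative sums, with reads in 27.6% of cells. Tlr2, a receptor for bacterial lipoproteins, had 1209 and 3318 reads in positive against 3 and 260 in negative cells. Of the positive Tlr2 reads 1 cell gave 40.9% in batch 2 and another 61.8% in batch 3, and the negative sum of batch 2 is too small for a fold.

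The interleukin 17 receptor genes were rarely read. Il17ra had reads in 10.9% and Il17rc in 7.05% of kept inflamed cells, and Il17ra was lower in batch 2 and higher in batch 3. Of 24 genes of the interleukin 17 and 22 response, 13 had no read and 10 were measured. Of the 10, 4 were higher in each batch and 2 lower, against 27.3% and 22.1% of all genes. The medians were 0.84 and 0.25, and 0.43 and -0.25 with cells given equal weight. Slpi, a secreted protease inhibitor, was at 111.4 and 113.4 CPM in positive against 32.1 and 52.8 CPM in negative sums. Steap4, a metalloreductase, was at 117.5 and 95.9 CPM against 190 and 479 CPM. For the TNF superfamily 3 of 11 members were higher in each batch and 3 lower, against 27.3% and 22.1% of all genes. The M cell list is for the cells over lymphoid follicles in which Ccl20 is a known product. In it 4 of 8 were higher in both batches and 1 lower, with medians of 0.51 and 0.34.

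Genes of the interferon gamma response were split by batch. Of 28 measured, 8 were higher in both batches and 2 lower, against 27.3% and 22.1% of all genes. The list medians were 1.09 in batch 2 and -0.06 in batch 3. Irf1, a transcription factor that interferon gamma and NF-kB both induce, was one of the 8. Its medians in cells with 50 or more, 1 to 49 and 0 Ccl20 reads were 26.7, 8.31 and 4.88 CPM in batch 2 and 508, 315 and 147.6 CPM in batch 3. The order of the medians was the same in both batches, and in each group the lowest cell was at 0 and the highest at 2247 CPM or more. Naive medians were 1.23 and 0 CPM. Its sums held 342 and 1061 CPM in positive and 193 and 466 CPM in negative cells (log2 fold change 1.01 ± 0.22, SE, n = 2 sums per class; unadjusted p = 0.0158, adjusted p = 1, edgeR). Nlrc5, which activates MHC class I genes, was at 42.7 and 59.96 CPM against 6.16 and 6.36 CPM, and 1 cell gave 66.4% of its positive reads in batch 2.

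All 7 measured MHC class II genes were lower in the positive sums of both batches, against 22.1% of all genes, with medians of -1.15 and -0.29. H2-Aa, a class II chain, stood at 105.2 and 1161 CPM in positive against 234 and 1468 CPM in negative cells. Reads of it were found in 64.4% and 95.9% of positive cells and in 62.9% and 100% of negative cells. Of the cells with H2-Aa reads 56.9% and 63.5% were Ccl20-positive, close to the 56.2% and 64.5% among all kept inflamed cells. The 7 lower members became 3 when cells were given equal weight, 3 in the sums of cells with 50 or more Ccl20 reads, and 5 without cells in mitosis, with 0 higher in each case. With both the 50-read limit and equal weight, 2 were higher and 2 lower, and H2-Aa differed by -1.84 in batch 2 and 1.44 in batch 3. Of 19 measured type I interferon genes, 7 were higher and 3 lower in each batch, against 27.3% and 22.1% of all genes.

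Mitotic genes were lower in positive cells, mainly in batch 2. Of 24 measured genes of the G2 and M phases, 1 was higher in both batches and 13 were lower, 9 of them at least 2-fold, where 22.1% of all genes were lower and 6.58% at least 2-fold lower. The medians were -2.35 and -0.69. Without the cells in mitosis described below, 10 of them were measured, 3 higher in each batch and 5 lower. Those cells were chosen by reads of these same genes, so the smaller numbers follow in part from that choice. The summed level of the 24 genes in all cells was 319 and 572 CPM in positive against 1302 and 975 CPM in negative cells. It was 73.2 and 635 CPM in cells with 50 or more Ccl20 reads. Top2a, which untangles DNA before division, was at 21.2 and 66.4 CPM against 298 and 134.3 CPM, and 63.9% of the negative reads of batch 3 came from 1 cell. The proliferation marker Mki67 went the other way in batch 3, where negative cells held 1 read and positive cells 1951.

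These values rest on few cells. Cells with reads of at least 10 of the G2 and M genes numbered 1 of 45 positive (2.22%, 0.0562 to 11.8) and 5 of 35 negative (14.3%, 4.81 to 30.3) in batch 2. In batch 3 they were 6 of 49 (12.2%, 4.63 to 24.8) and 3 of 27 (11.1%, 2.35 to 29.2), and the intervals overlapped in both batches. In the S phase list 3 of 15 genes were higher in each batch and 5 lower, against 27.3% and 22.1% of all genes. Tyms, which makes thymidylate, was at 81.9 and 53.8 CPM in positive and 21.3 and 6.98 CPM in negative sums.

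Among adhesion genes, Itga6, the integrin chain (CD49f) for which the cells had been stained, was higher in positive cells of both batches. Its medians in cells with 50 or more, 1 to 49 and 0 Ccl20 reads were 468, 273 and 98.5 CPM in batch 2 and 187.7, 224 and 105.6 CPM in batch 3. Positive cells had the higher median in both batches, with overlapping ranges of 3.94 to 2327 CPM against 0 to 2669 CPM in batch 2. The sums were 629 and 434 CPM in positive against 368 and 219 CPM in negative cells (log2 fold change 0.88 ± 0.22, SE, n = 2 sums per class; unadjusted p = 0.0231, adjusted p = 1, edgeR). The adhesion and matrix list had 7 of 16 genes higher in each batch and 1 lower, against 27.3% and 22.1% of all genes. The list medians were 0.17 and 0.17. With cells given equal weight, 6 were higher and 0 lower, and without cells in mitosis 3 were higher and 1 lower. In the sums of cells with 50 or more Ccl20 reads, 3 were higher and 4 lower, with medians of 0.33 and -0.04. With both the 50-read limit and equal weight, 6 were higher and 2 lower. Krt14, a basal keratin, was at 1226 and 1062 CPM against 1060 and 920 CPM, and Ly6a (Sca-1) at 2233 and 1909 CPM against 1864 and 2198 CPM.

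Most of the remaining lists had similar numbers of members in each direction. Squamous keratins and envelope genes had 5 of 17 members higher in both batches and 6 lower, proximal luminal genes 2 of 13 and 2, immediate early genes 7 of 23 and 7, JAK-STAT3 genes 5 of 16 and 5, EGF receptor genes 4 of 13 and 3, and glycolysis genes 5 of 18 and 4. Krt13, a squamous keratin, stood at 130.6 and 355 CPM in positive against 438 and 306 CPM in negative sums. Its mean in cells with 50 or more Ccl20 reads differed from negative cells by -2.50 in batch 2 and 1.44 in batch 3. The heat shock list had more lower members, with 1 of 14 higher in each batch and 6 lower, against 27.3% and 22.1% of all genes, and medians of -0.85 and 0.03. The summed level of these genes was 7588 and 7854 CPM in positive against 10080 and 8683 CPM in negative cells. The androgen and glucocorticoid list had 2 of 12 higher and 3 lower, against the same shares of all genes. In it the glucocorticoid receptor Nr3c1 was at 7.62 and 32.2 CPM against 77.3 and 98.7 CPM, the protease Tmprss2 at 38.1 and 44.1 CPM against 132.8 and 91.8 CPM, and the zinc finger factor Zbtb16 at 42.2 and 13.1 CPM against 11.7 and 0.582 CPM.

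**Figure D3:**
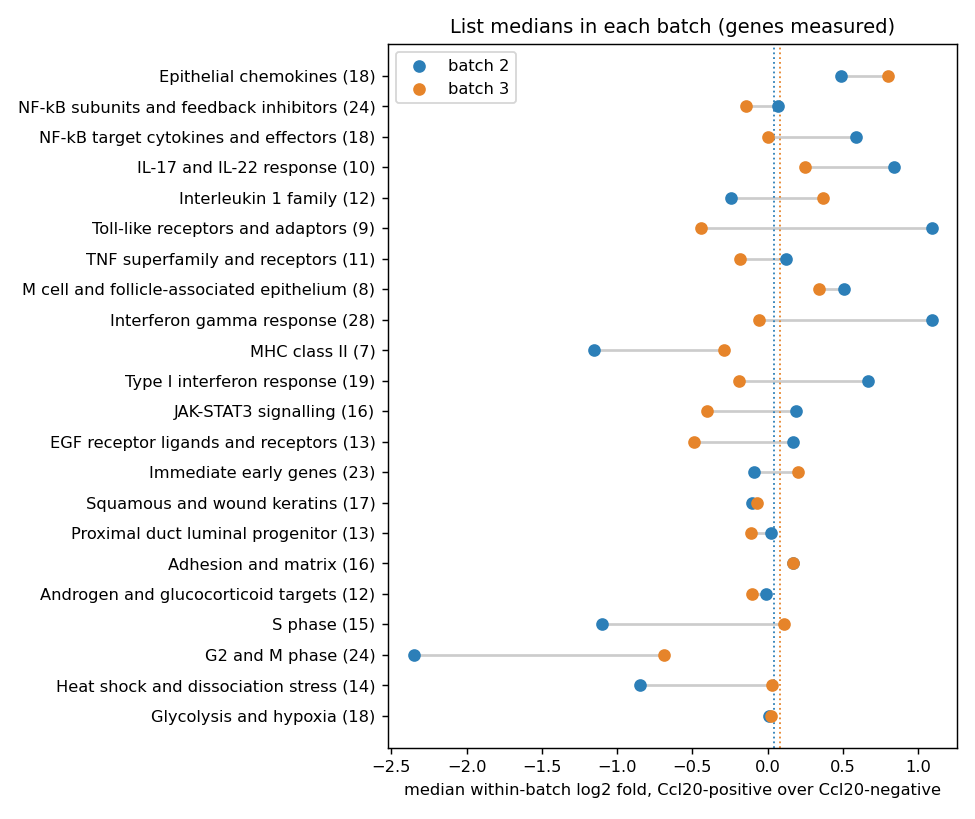
Median log2 fold of each gene list, Ccl20-positive over Ccl20-negative sums, in batch 2 and batch 3, with dotted lines at the medians over all genes (0.04 and 0.08). The G2 and M list lies lowest in both batches. The epithelial chemokine, interleukin 17 and 22, M cell, and adhesion and matrix lists are above the dotted lines in both for these sums. The interferon gamma list is high in batch 2 alone.

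All genes, in a list or not, were ranked by the smaller of the within-batch folds, and the 12 highest and 12 lowest were taken. The ranking covered genes with reads in at least 20% of the kept inflamed cells and, in the class where the gene was higher, under 50% of the reads from 1 cell in each batch, limits that left out Nlrc5 and Tlr2 among others. Vps41, a subunit of the complex that tethers vesicles to lysosomes, had the highest. Reads were found in 22 of 45 and 19 of 49 positive cells against 5 of 35 and 7 of 27 negative cells. Its sums stood at 158.5 and 170.6 CPM against 11.1 and 11.2 CPM, 14.2-fold and 15.2-fold higher (log2 fold change 3.88 ± 0.47, SE, n = 2 sums per class; unadjusted p = 0.00232, adjusted p = 1, edgeR; adjusted p = 1.29e-07, DESeq2). The median cell was at 0 in all 4 groups and the highest positive cells reached 1440 and 1610 CPM, against 239 and 130.2 CPM. The mean difference for cells with 50 or more Ccl20 reads was 2.64 in batch 2 and 0.94 in batch 3.

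The other 11 of the highest were Arhgap8, Arl2, Ccnh, Iars2, Irak2, Lrpprc, Parn, Rhbdd2, Rhbdf1, Tmem131 and Zbtb43. They encode, among others, a cyclin of the CDK-activating kinase (Ccnh), a mitochondrial isoleucyl-tRNA synthetase (Iars2), a poly(A) ribonuclease (Parn) and an inactive rhomboid protein (Rhbdf1). Ccnh was at 48.7 and 45.3 CPM in positive against 1.45 and 8.46 CPM in negative sums, and Rhbdf1 at 96.3 and 41.9 CPM against 16.4 and 7.45 CPM. The 12 lowest were Arhgap35, Arl8a, Htt, Mgat2, Myo9b, Noc2l, Nr3c1, Qtrt1, Rcbtb2, Tab2, Tma16 and Vasn. Tab2, an adaptor between the interleukin 1 receptor and NF-kB, was at 28.4 and 34.7 CPM in positive against 84 and 104.3 CPM in negative sums, and Htt, huntingtin, at 15.4 and 42.99 CPM against 53.3 and 128.6 CPM.

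When only cells with 50 or more Ccl20 reads were set against negative cells, the 12 genes with the largest differences shared by both batches had reads in 41.7% (Bcor) to 96.2% (Ptgs2, Pls3) of cells. They were picked after their values were seen. Beside Ptgs2, Cxcl1 and Itga6 they comprised Pla2g4a, Rab20, Ext1, Maf, Slc25a17, Bcor, Dmtf1, Cers6 and Pls3. Pla2g4a is the phospholipase A2 that releases arachidonic acid, the substrate of Ptgs2. Its median was 57.5 CPM against 1.93 CPM in negative cells of batch 2 and 1.18 against 1.08 CPM in batch 3, and its mean difference was 1.80 and 1.70. In batch 3 the highest cells reached 1355 CPM against 513 CPM.

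Rab20, a small GTPase of phagosomes, had medians of 117.4 and 88.9 CPM against 0 and 0 in negative cells, and mean differences of 2.79 and 1.82. Maf, a leucine zipper transcription factor, had reads in all 36 cells with abundant Ccl20 and in 86.5% of all kept inflamed cells. Its medians were 199 and 226 CPM against 3.87 and 27.2 CPM in negative cells. Ext1, an enzyme of heparan sulfate synthesis, had medians of 97.3 and 80.3 CPM against 21.9 and 21.3 CPM. In each of these the ranges overlapped. Cells with 1 to 49 Ccl20 reads had medians of 85.4 and 5.16 CPM for Maf and of 26.4 and 6.05 CPM for Ext1. Naive cells had more Maf than negative cells, with medians of 459 and 56.2 CPM.

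The 12 lowest in the same contrast were Psat1, Arl14ep, Car2, Mbd2, Nck2, Ppp2ca, Gadd45g, Kcnq1ot1, Mapk13, Ccdc25, Trip11 and Tubb6. Psat1, an enzyme of serine synthesis, differed by -2.77 and -1.44, Mbd2, which binds methylated DNA, by -2.31 and -1.56, and Car2, a carbonic anhydrase, by -1.63 and -1.71. Kcnq1ot1 is antisense to Kcnq1, and strand is not marked in these libraries, so its reads are uncertain.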

How the data were processed

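Single-cell RNA-seq was analysed from the deposited tables of raw counts of reads per gene, 1 per batch with 48440 gene rows, of which 48058 matched a GENCODE symbol for GRCm38. The authors' tools and build were TopHat2, HTSeq, R 3.4.1, Seurat 1.4 and GRCm38.p6, per the submitters' processing notes, which give no roles. The counting of multiply mapping reads is unknown, so genes with close copies (H2, Ly6, Krt6a, Tyms) are uncertain, and reads of overlapping genes cannot be told apart by strand.

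Cells with under 1000 detected genes or 50000 counts were left out (14 of 282). A deposited cell had 2725 to 2219764 counts. No doublet caller was run. Counts were summed per class and batch and tested with edgeR 4.0.16 in R 4.3.3 (quasi-likelihood F test, TMM factors, filterByExpr, batch and class as terms, Benjamini-Hochberg adjusted p under 0.05). CPM of single-gene sums uses TMM-scaled library sizes, and the summed CPM of gene lists and markers uses unscaled total counts. CPM of single cells uses their total counts. Within-batch log2 folds used a prior count of 2, and per-cell values were log2(CPM + 1). DESeq2 1.42.0 was an alternative, and means with cells weighted equally were fitted with limma 3.58.1. The labels name the batch, which pairs the sums, and across genes the batch deviations of the classes had a correlation of 0.06.

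The members and gene lists were chosen with earlier results of these data known. A list member is called measured when it passed filterByExpr. Named genes were, per list, those with reads in 20% of cells that were 2-fold apart in both batches, with the highest and lowest member. Added to these were the 12 highest and lowest overall with under 50% of reads from 1 cell, and fixed genes. Cxcl1, Cxcl10, Icam1, Nfkbia, Il1a, Lif, Irf1, Il17ra, Il17rc, Krt14, Ptprc, Pla2g4a and the genes of the contrast at 50 or more reads were chosen after their values were seen.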

Additional observations from a re-analysis of the deposited data

Results flagged for a closer look

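Ccl20 reads appeared in cells that the comparison did not use. Of the kept naive cells of batch 3, 15.25% (9 of 59) had a Ccl20 read, above the 0 of 53 in naive cells of batch 2. Of these 9 cells 6 had 1 read and the most was 6. Of the 7 inflamed cells left out for low counts or few genes, 4 had a Ccl20 read (57.14%), with at most 7 reads, above the limit of 42.9% that a count of 0 of 7 allows. The source of these reads was not tested.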

How the results depend on the processing

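edgeR called 0 genes under each alternative on sums, and limma called 0 with cells weighted equally. With no replicate block edgeR also called 0, and 486 genes were higher and 248 lower by unadjusted p under 0.05. The paired edgeR fit gave 246 higher, and DESeq2 called 409 genes. Of the genes tested, 10.3% and 6.58% were 2-fold higher and lower in both batches. These shares became 3.52% and 2.58% with genes in 20% of cells, 0.212% and 0.0984% with cells weighted equally, 6.86% and 11.3% with 50 or more Ccl20 reads and thinning, and 0.937% and 0.431% with 50 or more reads and equal weights. The last became 0.869% and 0.675% without cells above 20% mitochondrial reads. The lower share was 10.9% with at least 5 reads as positive and 12% with 50 or more. The contrasts at 50 or more reads and the mitochondrial limit were chosen after seeing the data.

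Of 1360 single-gene values under alternatives, 1319 kept direction and side of the threshold, 15 passed it (DESeq2) and 26 turned, for 17 genes, all log2 folds. With at least 5 reads these were Cxcl10 0.04, H2-Ab1 0.14, Ivl -1.80, Mki67 -0.12 and Prc1 -0.65. With equal weights they were Cxcl10 0.45, H2-Ab1 0.06, Krt13 0.04, Krt5 -0.03, Plau -0.06, Plec 0.01 and Prc1 -0.38. Without the block they were Ifih1 -0.26, Il17ra 0.15, Lypd3 0.35 and Mki67 -0.10. Ly6a was -0.01 with DESeq2, -0.01 with RLE factors, -0.02 with matched detected genes, where Krt14 was -0.14, and -0.01 without the top Ccl20 cells, where Nfkbia was -0.06. Nfkbia was -0.04 when thinned and -0.02 without mitotic cells, where Dnajb4 was -0.03 and Psmb9 0.00.

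Leaving out 1 batch leaves each class with 1 sum and a value with no test. The folds then ran from -0.72 to 0.18 for Cxcl10, -0.17 to 0.41 for Dnajb4, -4.33 to 0.07 for Ereg, -3.62 to 0.04 for Hspa1a, -0.17 to 1.07 for Icam1, -0.84 to 1.37 for Ifih1, -1.87 to 0.79 for Il17ra, -1.74 to 0.22 for Krt13, -2.72 to 0.12 for Ltbr, -0.20 to 0.26 for Ly6a, -3.67 to 2.44 for Lypd3, -1.22 to 0.06 for Marcksl1, -1.34 to 8.73 for Mki67, -0.29 to 0.41 for Nfkbia, -0.19 to 2.95 for Oasl2, -2.82 to 0.58 for Pfkfb3, -0.29 to 1.51 for Pla2g4a, -0.89 to 1.58 for Prc1 and -0.63 to 0.01 for Psmb9. The cause of these changes was not tested. A count of 1 read is the limit for the positive class, and depth sets which cells near it are counted.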
